A study of Homo sapiens with 6 samples.

Results

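This account covers the microRNA genes that gave a detectable signal on the arrays. A microRNA gene entered the set when the symbol of its probe set was MIR or MIRLET followed by digits and letters, host genes with names ending in HG left out, and when its brightest probe set had a mean log2 value of at least 6 over all 6 arrays. The set held 209 of the 1022 microRNA genes measured, which were themselves part of 14812 named genes tested. The members were thus chosen by their level, and their level is a description with no test. HuH7 cells, an established line from a human hepatocellular carcinoma, were transfected with a plasmid expressing the kinase PKR (EIF2AK2), a carrier plasmid, poly I:C, which is a synthetic double-stranded RNA, and 50 pmol of a gapmer. One group of 3 samples received a gapmer against EGOT, a long noncoding RNA, and the other group of 3 received a control gapmer, and RNA was taken 36 hours after transfection. A gapmer is a short modified antisense oligonucleotide that directs RNase H to cut the RNA it pairs with. Both groups carried the PKR plasmid and poly I:C, 1 gapmer sequence stood for each condition, and untreated cells are not analysed here.

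MicroRNAs are cut from longer primary transcripts by Drosha with DGCR8 in the nucleus and then by Dicer in the cytoplasm. The mature strand guides an Argonaute protein to messenger RNAs, and bases 2 to 8 at its 5′ end, the seed, carry most of the pairing. Many microRNA genes lie inside a protein-coding or noncoding host gene on the same strand, and several lie in clusters that are transcribed together. In liver cells miR-122 is the textbook abundant microRNA, and miR-21, the let-7 family and the MIR25/MIR93/MIR106B group are widely studied in liver tumours. The arrays were hybridised with copies made from total RNA, so a probe set named for a microRNA may have read the primary transcript, the hairpin or the intron of a host gene. A value here is therefore called the signal of the microRNA gene, never the amount of mature microRNA. Levels were not ranked between genes as amounts, because probes differ in how brightly they bind.

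The mature sequences below are those of the members that passed the test between gapmers, given because their probe sets carry the differences described afterwards, with hsa-miR-3666 added for the seed it shares with hsa-miR-4295. They come from RefSeq (GRCh38.p14), read 5′ to 3′, with the seed in capitals. For MIR3143 and MIR548H2 the names only are given.
hsa-miR-4295: cAGUGCAAuguuuuccuu, from chr10:112634180-112634197, plus strand.
hsa-miR-3666: cAGUGCAAguguagaugccga, from chr7:114653373-114653393, plus strand.
hsa-miR-107: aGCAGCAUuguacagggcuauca, from chr10:89592756-89592778, minus strand.
hsa-miR-3135b: gGCUGGAGcgagugcaguggug, from chr6:32749952-32749973, minus strand.
hsa-miR-152-3p: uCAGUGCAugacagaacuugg, from chr17:48037174-48037194, minus strand.
hsa-miR-152-5p: aGGUUCUGugauacacuccgacu, from chr17:48037210-48037232, minus strand.
hsa-miR-574-3p: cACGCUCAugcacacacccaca, from chr4:38868092-38868113, plus strand.
hsa-miR-574-5p: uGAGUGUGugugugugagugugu, from chr4:38868056-38868078, plus strand.
hsa-miR-3180: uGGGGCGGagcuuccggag, from chr16:15154949-15154967, minus strand, in MIR3180-4.
hsa-miR-24-3p: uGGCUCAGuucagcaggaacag, from chr19:13836289-13836310, minus strand, in MIR24-2.
hsa-miR-24-2-5p: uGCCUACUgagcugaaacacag, from chr19:13836326-13836347, minus strand, in MIR24-2.
hsa-miR-608: aGGGGUGGuguugggacagcuccgu, from chr10:100975000-100975024, plus strand.
hsa-miR-877-3p: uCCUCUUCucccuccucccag, from chr6:30584397-30584417, plus strand.
hsa-miR-877-5p: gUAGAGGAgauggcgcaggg, from chr6:30584332-30584351, plus strand.

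The EGOT target checked the labels: the control arrays gave 6.29, 6.79 and 6.71, and those with the EGOT gapmer gave 4.91, 4.90 and 4.69. The log2 difference was -1.76 (SE 0.142, limma adjusted p = 0.0076), and the two-sided exact permutation p was 0.1, the smallest that 20 assignments of the arrays allow. All 14 measured genes of a 17-gene hepatocyte list lay above the median of every array. Of 8 leukocyte markers 4 were measured (CD2, CD14, CD68 and LYZ), and 3 of them lay above every array's median. The mean level of the 4 ran from 6.90 to 6.99 in the control arrays and from 7.34 to 7.49 with the EGOT gapmer. The part of this in the results below was not tested. Of 5 endothelial markers 2 were measured (VWF and KDR), and of 5 fibroblast and stellate markers 1 (DCN). Of these, 0 lay above every array's median. The EGOT gapmer replicate 2 array stood apart, being the highest or lowest of the 6 arrays in 46.2% of all tested genes and in 44.5% of the members. The other arrays ran from 29.1% to 33.3% of all tested genes and from 24.4% to 36.4% of the members. That array was the highest in 35.3% and the lowest in 10.8% of all tested genes, and in 26.8% and 17.7% of the members. Its part in the counts of genes that rose or fell was not tested beyond leaving it out. Nothing in the labels says that the 3 samples of a group came from separate cultures on separate days, so each p reflects only how these samples varied, and that variation may be technical.

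Among the detectable microRNA genes, 4 rose and 7 fell with the EGOT gapmer, and 198 did not pass the test. Those 11 genes were 5.26% of the 209, against 8.41% of all tested genes (limma, Benjamini-Hochberg adjusted p under 0.05 over the 14812 genes). In the upward direction the share was 1.91% of members against 5.20% of all tested genes, and in the downward direction 3.35% against 3.21%. Both shares are of the order of the background or below it, so the counts mark no excess of called microRNA genes. The differences leaned to lower signal: 131 members were below 0 and 78 above, so 62.7% were below 0, compared with 42.2% of all tested genes and 38.7% of the 7607 other genes with a mean of at least 6. The median difference was -0.05 for the members and 0.04 for all tested genes. At an unadjusted p under 0.05 there were 32 members (15.3%), against 25.0% of all tested genes. In the upward direction there were 9 (4.31%, against 16.2%) and in the downward direction 23 (11.0%, against 8.79%). The 3 arrays of a group did not overlap with the 3 of the other in 39 members (18.7%), 11 higher and 28 lower, against 31.7% of all tested genes.

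MIR4295 fell the most of the members that passed. Its signal was 7.37, 7.63 and 7.42 in the control arrays and 6.25, 6.44 and 6.59 with the EGOT gapmer. All 3 EGOT gapmer values lay below the lowest control value, and the 3 arrays within each group were close together (7.47 ± 0.139 and 6.43 ± 0.174, SD, n = 3 each). The log2 difference was -1.04 (SE 0.114, limma adjusted p = 0.00945), a 2.06-fold lower signal. MIR4295 lies within VTI1A, the gene of a SNARE protein of Golgi and endosomal vesicle fusion, on the same strand. VTI1A was 7.37, 7.36 and 7.39 in the control arrays and 6.54, 6.50 and 6.66 with the EGOT gapmer, a difference of -0.81 (SE 0.0714, adjusted p = 0.00807). This was the single pair of a member and its measured host in which both passed, and both fell. Whether the MIR4295 probe set read the VTI1A transcript cannot be told from the values.

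MIR107 also fell. It encodes miR-107, a relative of miR-103 known for its link to lipid and glucose metabolism. Its control values were 6.22, 6.22 and 6.52 and its EGOT gapmer values 5.59, 5.88 and 5.86, so the groups did not overlap (-0.54, SE 0.120, adjusted p = 0.0398). Its host on the same strand, PANK1, a pantothenate kinase of coenzyme A synthesis, did not move with it: PANK1 averaged 6.49 ± 0.111 in control and 6.69 ± 0.141 in EGOT gapmer arrays (n = 3 each), a difference of 0.21 with an adjusted p of 0.253. The member and host therefore had opposite signs. A second, dimmer probe set named MIR107 had a difference of -0.10, and the mean of both probe sets gave -0.32 with an adjusted p of 0.0678.

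The other 5 members that fell had smaller changes. MIR548H2, of the large repeat-derived miR-548 family, had values of 7.69, 7.88 and 7.83 in control and 7.39, 7.08 and 7.38 in EGOT gapmer arrays (-0.51, SE 0.108, adjusted p = 0.0345). MIR3135B was 7.24, 7.14 and 6.91 against 6.50, 6.77 and 6.44 (-0.52, SE 0.122, adjusted p = 0.0453). The 4 probe sets with the MIR3135B name held identical values and are 1 measurement. MIR152, a relative of miR-148, was 6.34, 6.61 and 6.61 in the control arrays and 6.13, 6.18 and 6.03 with the EGOT gapmer (-0.41, SE 0.0967, adjusted p = 0.0462). MIR574 was 9.24, 9.31 and 9.16 against 8.94, 8.86 and 8.98 (-0.32, SE 0.0745, adjusted p = 0.0466). The control and EGOT gapmer values of each of these genes lay on separate sides with no overlap. MIR3180-4 was 6.94, 6.67 and 6.80 against 6.41, 6.50 and 6.37 (-0.37, SE 0.0906, adjusted p = 0.0498), just under the threshold. MIR3180 exists in near-identical copies, so its probe sets cannot assign the signal to 1 copy; its second probe set differed by -0.60, and the mean of its probe sets had an adjusted p of 0.0608.

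MIR3143 had the smallest p of the members that rose, and its probe set was also among the 6 brightest of the set. It was 9.15, 9.12 and 9.21 in the control arrays and 9.72, 9.52 and 9.70 with the EGOT gapmer, with no overlap (0.48, SE 0.0809, adjusted p = 0.0212), a 1.40-fold higher signal. The gene table held no gene around MIR3143 on its strand. MIR877, a mirtron, meaning a short intron spliced out to form the hairpin, was 6.89, 6.95 and 6.79 against 7.15, 7.53 and 7.38 (0.48, SE 0.109, adjusted p = 0.0430). Its 6 other probe sets held identical values, 1 measurement, with a difference of 0.52. Its host ABCF1, an ABC protein that acts in translation, is not analysed here.

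MIR608 and MIR24-2 rose as well. MIR608, in SEMA4G, was 6.47, 6.28 and 6.48 in the control arrays and 6.80, 6.75 and 6.81 with the EGOT gapmer (0.37, SE 0.0805, adjusted p = 0.0367). MIR24-2 belongs to the MIR23A/MIR27A/MIR24-2 cluster and was 6.01, 6.07 and 6.03 against 6.43, 6.36 and 6.31 (0.33, SE 0.0684, adjusted p = 0.0334). The groups were apart in both genes, by a narrow step in each. The partners of MIR24-2 in the cluster lay below the level of 6, MIR23A with a difference of -0.01 (adjusted p = 0.982) and MIR27A with 0.07 (adjusted p = 0.875). MIR24-1, the second gene of miR-24-3p, lay far below the level of 6 at 2.12 ± 0.187 in control and 2.32 ± 0.139 in EGOT gapmer arrays (n = 3 each), with an adjusted p of 0.373.

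**Figure D1:**
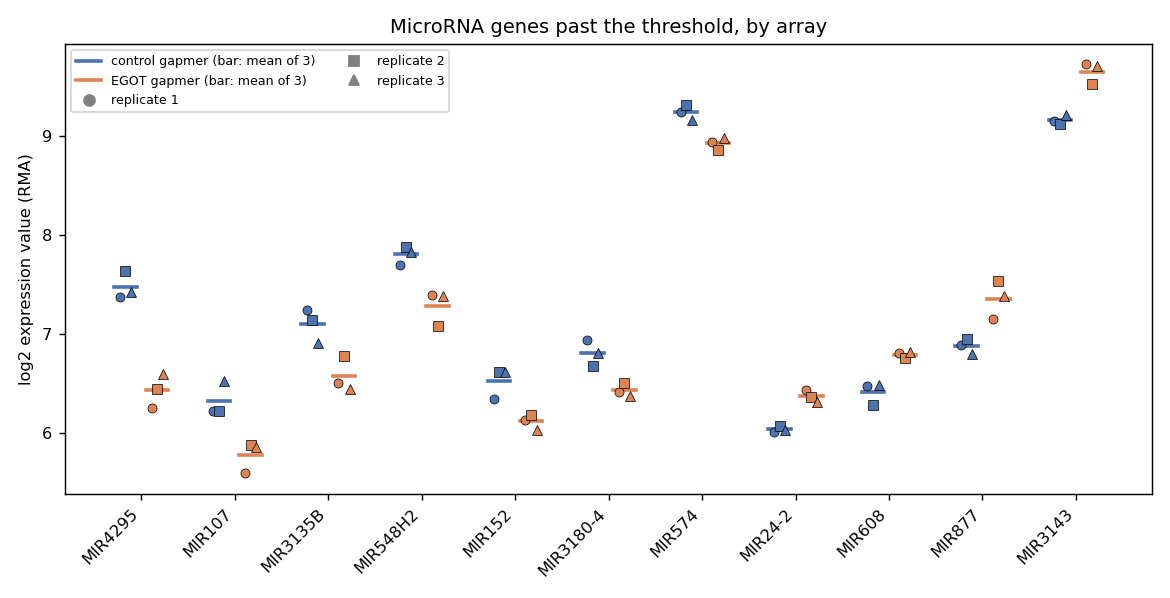
Log2 signal (vertical axis) of the 11 microRNA genes that passed the test, with genes along the horizontal axis, a point for each of the 3 control gapmer (blue) and 3 EGOT gapmer (orange) arrays, point shapes for the replicate numbers and a bar at each group mean. MIR4295 shows the widest gap, from a control mean of 7.47 to 6.43, while MIR24-2 rises from 6.04 to 6.37.

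These calls were close to the threshold. Each of the 11 genes kept its sign in all 14 alternative fits. MIR4295 passed in 11 of them, with differences from -1.13 to -0.95; it missed with the replicate block (adjusted p = 0.0591), without control replicate 2 (0.0562) and without control replicate 3 (0.0517). The other 10 passed in 4 to 7 of the 14. No member passed in every fit that left out 1 array: leaving out control arrays 1, 2 or 3 left 1, 0 and 0 members, and leaving out EGOT gapmer arrays 1, 2 or 3 left 3, 5 and 2. With every probe set of the table tested, MIR4295 was the 1 member that passed. With each array's trend on gene span removed, 5 of the 7 that fell kept the call and 0 of the 4 that rose did.

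Several members had large differences without passing. MIR4710 had the most negative difference, -1.11, but its EGOT gapmer values were 7.18, 3.54 and 6.40 against 6.56, 6.68 and 7.22 in control (adjusted p = 0.478), so that EGOT gapmer replicate 2 alone lay far below the other 5 arrays. MIR548C was 6.73, 6.42 and 6.36 in control and 5.26, 5.21 and 6.25 with the EGOT gapmer (-0.93, limma adjusted p = 0.0837). A second, far dimmer probe set named MIR548C, at a mean of 1.76, differed by -0.06. The host of MIR548C, RASSF3, differed by -0.36 (limma adjusted p = 0.0661). MIR1238 was 8.60, 8.36 and 8.50 against 8.13, 7.37 and 7.86 (-0.70, adjusted p = 0.0616). In MIR548C and MIR1238 the groups did not overlap, while the EGOT gapmer arrays were spread wider than the control arrays. These 3 genes were named after their values were seen.

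Most members differed little between the gapmers, and their values varied more within a group than those of other genes. The difference was under 0.2 in size for 146 members, at least 0.5 for 8, and at least 1 for 2 (MIR4295 and MIR4710). The median within-group SD of a member was 0.165, against 0.0877 for the 7607 other genes with a mean of at least 6, and the median SE of a difference was 0.118 against 0.0821. Those other genes were brighter, but within a level of 6 to 7 the median SD was still 0.169 for 130 members and 0.116 for 2519 other genes, and within 7 to 8 it was 0.155 for 54 and 0.0877 for 2358. Of all the other genes with a mean of at least 6, 14% passed the test. The range over the 6 arrays had a median of 0.498 among members and reached at least 1 in 15 of them. The mean over the members was 6.97 or above in each control array and 6.91, 6.96 and 6.87 in the EGOT gapmer arrays, so the closest arrays of the groups were 1 hundredth apart.

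**Figure D2:**
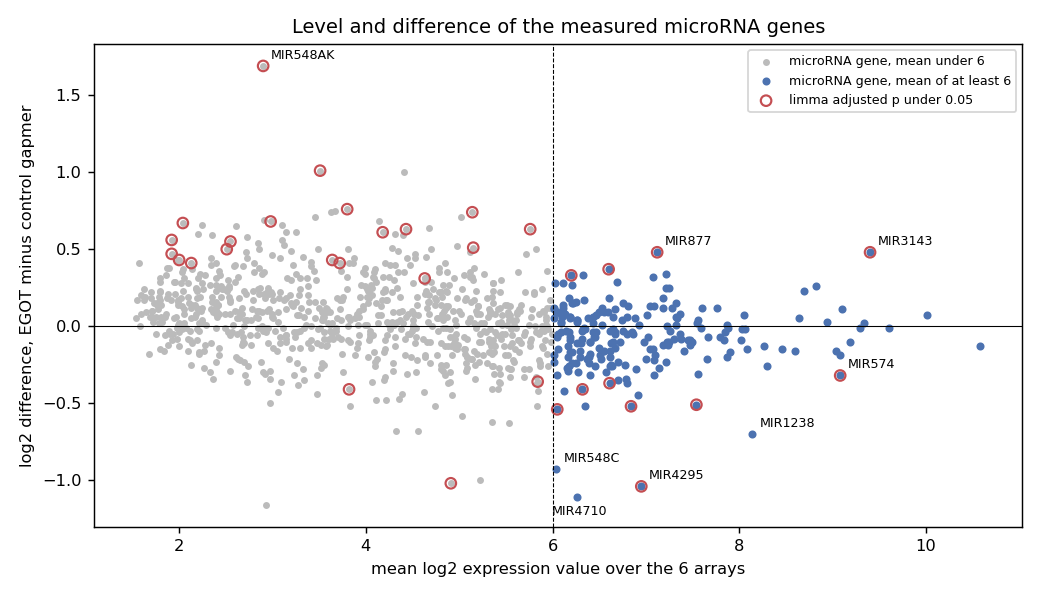
Mean log2 signal over the 6 arrays (horizontal axis) against the log2 difference, EGOT gapmer minus control gapmer (vertical axis), 1 point per microRNA gene, members in blue to the right of the dashed line at 6, the other 813 in grey, and genes that passed the test ringed. Most members lie within 0.2 of 0; MIR4295 at -1.04 and MIR4710 at -1.11 lie lowest among them, and MIR4295 is the ringed one.

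The level rule divides a continuous range. Member levels ran from 6.01 to 10.58 with a median of 6.67, and the median of all measured microRNA genes was 4.44. The mean was at least 7 in 79 members, at least 8 in 25 and at least 9 in 11, and 165 members were at 6 or above in each of the 6 arrays. Just inside the level of 6 were MIR99A, MIR3691 and MIR4518, each at 6.01, and just outside were MIR1295A at 5.99, MIR342 at 5.98 and MIR4681 at 5.97. The neighbours on either side of the level differ by a few hundredths, less than the within-group SD. The brightest probe sets were those of MIR4737, MIR3689F, MIR4442, MIR3143, MIR570 and MIR2909. Apart from MIR3143, these 5 had differences from -0.13 (MIR4737, adjusted p = 0.291) to 0.07 (MIR3689F, adjusted p = 0.794).

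Signal tracked the base composition of the hairpin. Hairpin sequences were at hand for 176 members and 669 measured microRNA genes under the level of 6. The median G+C share was 57.7% in members and 45.7% in the rest. Of microRNA genes with a hairpin under 40% G+C, 11 of 170 (6.5%) were members, and the share was 10.6% (32 of 302) from 40% to 50%, 26.1% (62 of 238) from 50% to 60% and 52.6% (71 of 135) at 60% and above. Across the 845 genes the level correlated with G+C share at a Pearson r of 0.56 and a Spearman rho of 0.58; this is a description across genes, which share arrays and probe chemistry and are not independent replicates. The median differences between gapmers in those 4 classes of members were 0.06, -0.05, -0.03 and -0.07. They were highest in the class under 40%, of 11 members, and lowest at 60% and above, without a steady order between. A link between composition and the differences was not tested. Membership in the set thus went with composition, whose part in the levels was not tested.

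**Figure D3:**
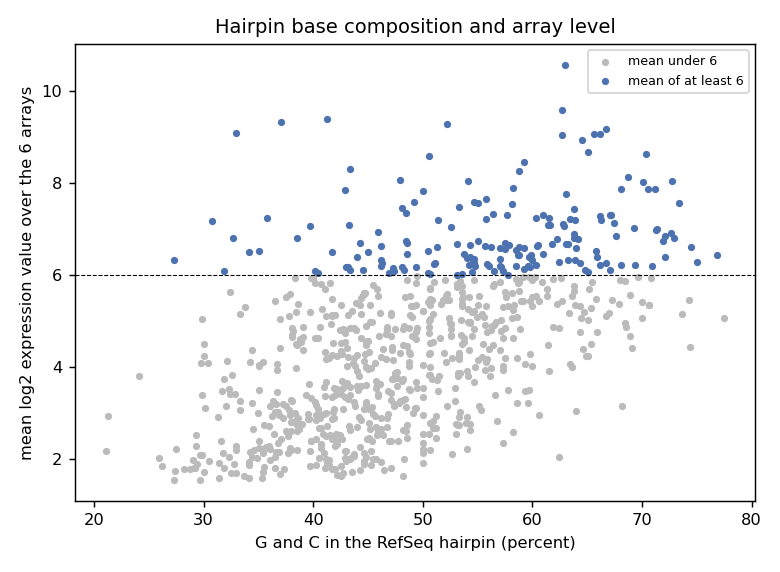
G+C share of the RefSeq hairpin in percent (horizontal axis) against mean log2 signal over the 6 arrays (vertical axis) for the 845 microRNA genes with a hairpin sequence, with members in blue above the dashed line at 6 and the other genes in grey. Members make up 6.5% of genes under 40% G+C and 52.6% at 60% or above.

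Clustered microRNA genes gave no joint change that passed. With neighbours at most 10 kb apart on the same strand, 9 clusters held at least 2 members, 23 members among 76 measured genes. Of the 23, 0 passed the limma test after adjustment, against 8.41% of all tested genes, and 2 (MIR500B and MIR3689D2) had an unadjusted p under 0.05 (8.70%, against 25.0%). With so few genes these counts say nothing particular about clustered members. The MIR25/MIR93/MIR106B cluster lies in MCM7, a subunit of the replicative helicase, and all 3 of its genes are members. MIR25 was 7.78, 7.56 and 7.75 in the control arrays and 7.78, 7.74 and 7.93 with the EGOT gapmer (0.12, SE 0.0912, adjusted p = 0.469). MIR93 differed by 0.11 (adjusted p = 0.634) and MIR106B by 0.07 (adjusted p = 0.685). Their groups overlapped in all 3 genes, and MCM7 itself went from 10.12 ± 0.0645 to 10.24 ± 0.0322 (n = 3 each, adjusted p = 0.349).

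The MIR3689 cluster on chromosome 9 held the most members, 5 of 6 measured genes. MIR3689A, MIR3689B and MIR3689F share a seed, and MIR3689D1 and MIR3689D2 list the same mature microRNA, so their probe sets may not be separate measurements. MIR3689A, MIR3689D1 and MIR3689F differed by 0.05, 0.02 and 0.07, and MIR3689B and MIR3689D2 by -0.16 and -0.30 (adjusted p = 0.361 and 0.155). The cluster therefore showed both signs. On chromosome X, in the chloride channel gene CLCN5, 3 of 8 measured genes were members: MIR500A differed by 0.05, MIR502 by -0.07 and MIR500B by -0.26. MIR500B was 6.69, 6.81 and 6.82 against 6.53, 6.48 and 6.53, without overlap, and missed the threshold (adjusted p = 0.0712).

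The remaining clusters contributed 2 members each. MIR503 and MIR424, on chromosome X, were both above 0, at 0.09 and 0.16. MIR181C and MIR181D, in NANOS3, were both below 0, at -0.15 and -0.07, with NANOS3 at -0.28 (adjusted p = 0.243). MIR23B and MIR27B, in the aminopeptidase gene AOPEP, were at -0.21 and 0.02, with AOPEP at 0.04. The signs differed within each of the others, as read from the brightest probe sets. MIR539 and MIR134 of the large chromosome 14 cluster (2 of 42 measured genes) were at 0.18 and -0.17. MIR338 and MIR1250 in AATK were at 0.04 and -0.23, and MIR99B and MIRLET7E in SPACA6 at -0.08 and 0.06. A second MIR338 probe set, at a mean of 6.08, was at -0.07, the same sign as MIR1250. The adjusted p was 0.375 or higher in all 12 of these genes.

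**Figure D4:**
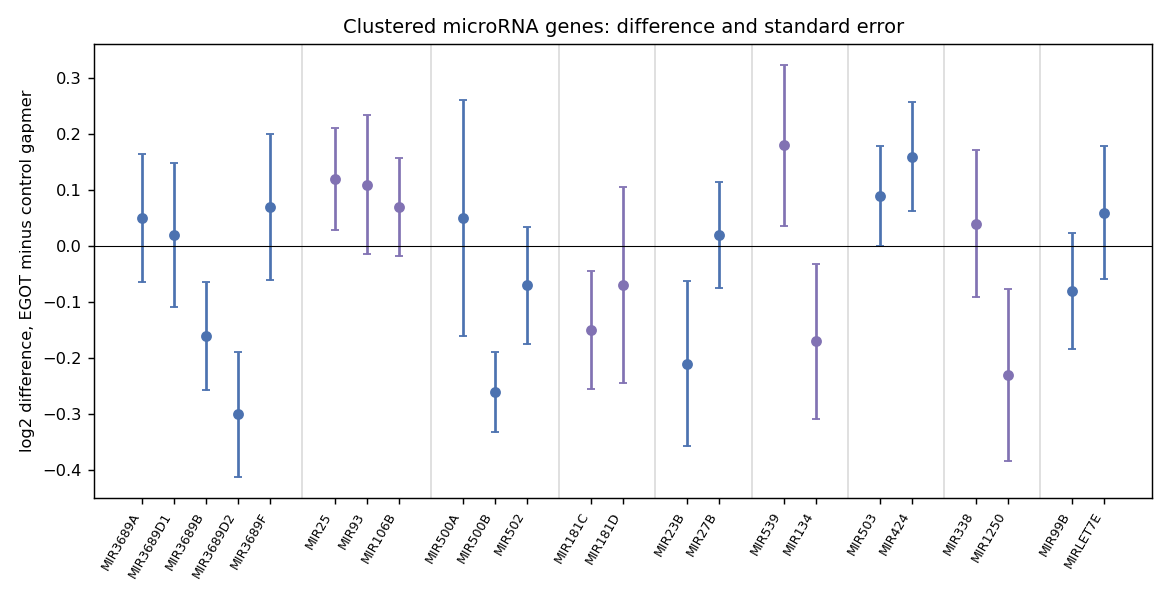
Log2 difference, EGOT gapmer minus control gapmer (vertical axis), for the 23 members in clusters (horizontal axis), with bars of 1 SE on either side; grey lines and alternating colours separate the 9 clusters. MIR25, MIR93 and MIR106B lie together between 0.07 and 0.12, while the MIR3689 genes run from -0.30 to 0.07.

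Members that share a seed were set side by side, as they would pair with overlapping sets of messenger RNAs. RefSeq gave 272 mature sequences for 188 members, with 255 different seeds, of which 14 were shared by at least 2 members and 27 members shared one. The let-7 seed was the most common, in 4 members, whose sequences are shown with the seed in capitals.
hsa-let-7d-5p: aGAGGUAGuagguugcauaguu.
hsa-let-7e-5p: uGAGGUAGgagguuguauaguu.
hsa-let-7i-5p: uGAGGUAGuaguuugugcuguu.
hsa-miR-98-5p: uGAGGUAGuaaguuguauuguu.
The let-7 family is known for repressing growth genes and for its control by LIN28. MIRLET7I was 5.88, 5.87 and 5.92 in control and 6.07, 6.24 and 6.19 with the EGOT gapmer, with no overlap (0.28, SE 0.0747, adjusted p = 0.0647). MIRLET7D differed by 0.14 (adjusted p = 0.632), MIRLET7E by 0.06 (adjusted p = 0.796) and MIR98 by -0.04 (adjusted p = 0.854). None of the 4 passed, and in the last 3 the groups overlapped. MIRLET7A1, which lay below the level of 6, averaged 4.09 ± 0.0819 in control and 4.59 ± 0.560 with the EGOT gapmer (n = 3 each, adjusted p = 0.277). It had the largest difference of the let-7 genes below that level. MIRLET7A2 was at -0.14, MIRLET7A3 at -0.13, MIRLET7C at 0.08, MIRLET7F1 at 0.29, MIRLET7F2 at 0.09 and MIRLET7G at 0.02, and none of them passed.

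The seed of hsa-miR-4295, shown above, also belongs to hsa-miR-3666, and it is the seed known from the miR-130 family. MIR3666 lies in FOXP2, a forkhead transcription factor. MIR3666 was 6.71, 6.55 and 6.46 in the control arrays and 6.35, 6.39 and 6.20 with the EGOT gapmer (-0.26, SE 0.0930, adjusted p = 0.140). The groups were apart, but the difference did not pass. FOXP2 was 7.52, 7.53 and 7.42 against 6.90, 7.06 and 6.88 and fell (-0.55, SE 0.0811, adjusted p = 0.0162). Both members with this seed thus lie in a host that fell, VTI1A and FOXP2. The other measured genes whose listed mature sequence has this seed lay below the level of 6 and did not pass. MIR130B was at -0.24 (adjusted p = 0.703), MIR301A at -0.30 (0.293), MIR301B at -0.05 (0.9) and MIR454 at 0.13 (0.568). MIR130A, of the same family but outside that listing, also lay below the level of 6 and was at 0.09 (adjusted p = 0.93).

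The seed of hsa-miR-25-3p recurs outside its cluster, in hsa-miR-92b-3p, while hsa-miR-93-5p and hsa-miR-106b-5p share a seed within the cluster. The sequences show both matches.
hsa-miR-25-3p: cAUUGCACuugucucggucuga.
hsa-miR-92b-3p: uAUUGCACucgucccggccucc.
hsa-miR-93-5p: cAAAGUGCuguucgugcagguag.
hsa-miR-106b-5p: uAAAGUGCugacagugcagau.
MIR92B was 6.41, 6.33 and 6.43 in control and 6.14, 6.33 and 6.09 with the EGOT gapmer (-0.20, adjusted p = 0.201), opposite in sign to MIR25. MIR21 and MIR590 share a further seed and differed by 0.29 and 0.01. Of these pairs, MIR25 and MIR92B had opposite signs, and the values of the others were on the same side of 0 without passing.

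Host genes were compared with the microRNA genes inside them. The strand was known for 194 members: 125 lay within a gene on their own strand, 105 of them in a protein-coding gene and 20 in a noncoding one, and for 69 the tables held no such gene. The tables do not say whether a microRNA gene sits in an intron or an exon. In 78 pairs, over 71 host genes, the host was measured as well. Of the 71 hosts 12 passed the test, 3 higher and 9 lower, with a median difference of 0.00. The 12 were 16.9% of the hosts, against 8.41% of all tested genes and 14% of the other genes with a mean of at least 6. Among all 14812 tested genes, 770 were higher (5.20%) and 475 lower (3.21%), so the hosts that passed leaned the other way. Leaving out control arrays 1, 2 or 3 left 1, 0 and 1 hosts past the threshold, and leaving out EGOT gapmer arrays 1, 2 or 3 left 4, 5 and 1. Member and host had the same sign in 48 of the 78 pairs. Across those pairs the differences correlated with a Pearson r of 0.40 and a Spearman rho of 0.28, and with an r of 0.21 without the 2 pairs farthest out, MIR4295 and MIR548C. The pairs share arrays and some share a host, so this is a description.

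The hosts that fell were VTI1A, FOXP2, SVIL, ZBTB20, LRMDA, CHST11, MIR924HG, NAV2 and SLIT2. SVIL, the gene of the actin-binding protein supervillin, went from 7.12 ± 0.0598 to 6.60 ± 0.115 (n = 3 each; -0.52, adjusted p = 0.0199), while MIR604 inside it differed by -0.10. ZBTB20, a zinc finger repressor of AFP in liver, was 8.13, 8.29 and 8.28 in control and 7.67, 7.82 and 7.74 with the EGOT gapmer (-0.49, adjusted p = 0.0203), and MIR4796 inside it differed by 0.08. In both the host groups were apart and the microRNA gene stayed near 0. SLIT2, a secreted guidance protein, fell by 0.34 on the log2 scale (adjusted p = 0.0423), and its MIR218-1 was above 0 at 0.28. MIR924HG had -0.40 (adjusted p = 0.0417), and MIR924, at 6.30, 6.42 and 6.27 against 5.88, 6.10 and 5.76, had -0.42 (adjusted p = 0.0531). Of the 9 members in a host that fell, 6 were below 0, a share near the 62.7% of all members.

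The hosts that rose were ZNF141 at 0.39, CKS1B at 0.34 and BID at 0.34. CKS1B, a cyclin-dependent kinase subunit, was 8.71, 8.83 and 8.74 in control and 9.07, 9.13 and 9.09 with the EGOT gapmer (adjusted p = 0.0337), and its MIR4258 was at 0.27. BID, a pro-apoptotic BCL2 family gene, and ZNF141 held MIR3198-1 at -0.03 and MIR571 at -0.09. Of these 3 members, 1 was above 0, beside 78 of all 209 members. The median genomic span was 545 kb for the 9 hosts that fell, 40.5 kb for the 3 that rose and 110 kb for all 71; with each array's trend on gene span removed, FOXP2, VTI1A and ZNF141 passed. The part of span in the host results was otherwise not tested.

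**Figure D5:**
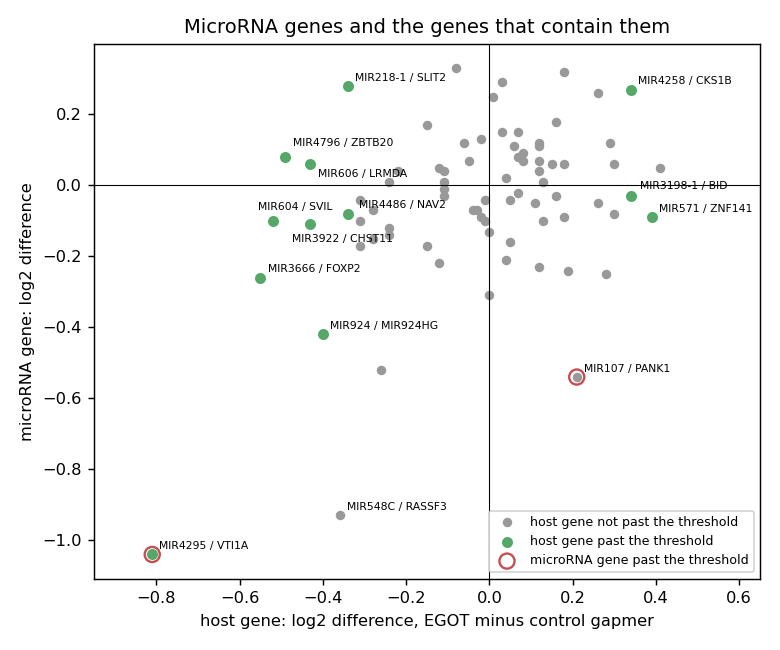
Log2 difference of the host gene (horizontal axis) against that of the microRNA gene inside it (vertical axis), EGOT gapmer minus control gapmer, 1 point for each of 78 pairs; green points are hosts that passed and red rings microRNA genes that passed. MIR4295 and VTI1A stand alone at the lower left with -1.04 and -0.81, and MIR107 lies at -0.54 with PANK1 at 0.21.

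MicroRNAs well known in liver, cancer and inflammation were looked up from a list of 25, of which 16 were measured and 8 were in the set. Of the 16, 0 passed the limma test, against 8.41% of all tested genes, and 3 (MIRLET7I, MIR194-1 and MIR34A) had an unadjusted p under 0.05 (18.8%, against 25.0%). MIR21, a microRNA raised in many tumours, was 6.13, 6.79 and 6.72 in control and 6.71, 6.80 and 6.99 with the EGOT gapmer (0.29, SE 0.179, adjusted p = 0.381). Its control replicate 1 lay apart from the other 5 arrays. MIR210, the classical hypoxia microRNA, was 8.04, 7.97 and 8.04 against 8.07, 8.29 and 7.90 (0.07, adjusted p = 0.745), and its host MIR210HG differed by 0.08. MIR192, enriched in liver, differed by 0.06 (adjusted p = 0.878), and MIR221, often raised in liver tumours, by -0.27 (adjusted p = 0.380). The groups overlapped in all 4 genes.

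The liver microRNA gene MIR122 was not in the set: its brightest probe set gave 5.19, 5.18 and 5.41 in control and 5.33, 4.98 and 5.15 with the EGOT gapmer (-0.10, adjusted p = 0.637). The inflammation-linked MIR155 and MIR146A were below 6 too, at differences of -0.03 (adjusted p = 0.906) and 0.11 (adjusted p = 0.651). MIR34A, a target of p53, went from 4.97 ± 0.202 to 5.35 ± 0.256 (n = 3 each; 0.38, adjusted p = 0.185). A gene below the level of 6 on this array may still be expressed in these cells, since the array reads total RNA and not the mature strand.

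Genes of microRNA processing and function were read from a list of 42, of which 25 were measured. Of the 25, 1 passed and rose, TNRC6A, a GW182 scaffold that joins Argonaute to the deadenylation machinery. Across all tested genes 8.41% passed, 5.20% higher and 3.21% lower, so 1 gene of 25 marks no excess. TNRC6A was 7.22, 7.16 and 7.20 in the control arrays and 7.53, 7.50 and 7.62 with the EGOT gapmer (0.36, SE 0.0691, adjusted p = 0.0291), with no overlap. It lost the call in each of the 6 fits without 1 array, with adjusted p from 0.0516 to 0.112. DGCR8, the partner of Drosha, differed by -0.04 (adjusted p = 0.786), and XPO5, which exports the hairpin, by 0.01 (adjusted p = 0.936). DROSHA, DICER1 and AGO2 are not analysed here. The list's median difference was 0.08, with 16 genes above 0 and 9 below, beside 0.04 for all tested genes.

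With TNRC6A included, 12 of the 25 had an unadjusted p under 0.05 (48.0%), 7 higher and 5 lower, against 25.0% of all tested genes and 37.3% of the other genes with a mean of at least 6. SRRT, which links the cap-binding complex to primary transcripts, was at 0.31 (adjusted p = 0.0571), and DDX5, a helicase of the Drosha complex, at 0.26 (adjusted p = 0.0666). DIS3L2, an exonuclease that degrades uridylated let-7 precursors, was at -0.25 (adjusted p = 0.0681). LIN28B, the let-7 repressor, was 10.08, 10.05 and 10.06 in control and 10.04, 10.13 and 10.00 with the EGOT gapmer (-0.01, adjusted p = 0.947). SRRT, DDX5 and DIS3L2 missed the threshold here and passed with a minimum mean of 5 (adjusted p = 0.0254, 0.0299 and 0.0308); with quantile normalization 5 genes of the list passed, 2 higher and 3 lower.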

How the data were processed

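The authors deposited log2 values of 44629 probe sets from 6 Affymetrix Human Gene ST arrays, 3 per group, made with RMA per the submitters' processing notes; no source used here gives the RMA version or the genome build. Array medians ran from 5.08 to 5.23, and the number of arrays limits the precision. The platform annotation gave 1 gene symbol to 15835 probe sets, which were reduced to the brightest probe set of each of 14812 genes. The difference between gapmers was fitted for all of them with limma 3.58.1 (R 4.3.3; lmFit and eBayes, two-sided, Benjamini-Hochberg, threshold 0.05). The same fit was also run on simulated data, whose outcome is not given here. Host genes were the RefSeq genes that contain the microRNA gene on its strand, protein-coding first, then the shortest. Of the members, 194 matched the RefSeq microRNA table (GRCh38.p14) and 15 did not.

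Named genes were the members past the threshold, the 6 brightest, cluster members, a list of well-known microRNAs, the neighbours of the level of 6, their hosts, and selected processing genes; others, such as the ninth cluster, seed partners and further hosts, were named after their values were seen. The members and lists were chosen with earlier results of these data known. The alternatives were quantile and cyclic loess scaling, the mean of probe sets, a variance trend, a minimum mean of 5, all probe sets, removal of a gene span trend, a replicate block and leaving out each array.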

Additional observations from a re-analysis of the deposited data

How the results depend on the processing

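The differences of the 11 members that passed kept their sign under all 14 alternatives, and 10 of the 11 passed under both rescalings; MIR608 missed with cyclic loess (adjusted p = 0.0510). The count of 11 members became 20 with a variance trend, 21 with only genes of a mean of at least 5 tested, 6 with the span trend removed, 1 with every probe set tested, and 0 to 5 without 1 array. The 12 hosts became 20 with a variance trend, 3 with the span trend removed, 1 with every probe set tested and 0 to 5 without 1 array. The 1 processing gene became 5 with quantile scaling, 4 with cyclic loess, 11 with a variance trend, 4 with a mean of at least 5, 0 with every probe set tested and 0 without any 1 array. All 1245 genes called (770 higher, 475 lower) became 2502, 2059, 671 and 67 under the variance trend, the mean of at least 5, the span trend removed and every probe set tested, and 9 to 579 without 1 array; rescaling moved the split to 679 higher and 674 lower (quantile) and 644 and 677 (cyclic loess). Fewer genes are tested with a minimum mean and more with every probe set; the other causes were not tested. With the replicate block no member, host, processing gene or other gene passed (0 in each count), and EGOT stayed at -1.76 with an adjusted p of 0.0543; same-numbered arrays did not deviate together (correlations of -0.0307, -0.054 and 0.0394). The set would hold 399 genes at a mean of at least 5 and 79 at 7. The members' median difference was -0.09 after either rescaling or removal of the span trend. MIR500B and MIRLET7I passed with a minimum mean of 5 (adjusted p = 0.0326 and 0.0291), the only such passes among the 58 genes that the naming rule gave and that missed the threshold. Of genes named outside that rule, SRRT, DDX5, DIS3L2, MIR924, MIR548C, MIR1238 and RASSF3 missed it and passed in at least 2 alternatives each.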

Other observations

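Among the 813 measured microRNA genes below the level of 6, 22 passed the test (2.71%, against 8.41% of all tested genes). They were 19 higher and 3 lower with the EGOT gapmer, and the median difference of the 813 was 0.06. Of all 14812 tested genes, 770 were higher (5.20%) and 475 lower (3.21%), so these counts mark no excess. The members, by comparison, had 4 higher and 7 lower. MIR548AK, of the miR-548 family, had the most positive difference of those that passed, 1.69 at a mean level of 2.90 (limma adjusted p = 0.0156). MIR3162 was at 1.01 (adjusted p = 0.0168) and MIR19B2, of the cluster related to MIR17, at 0.67 (adjusted p = 0.0108). MIR200A, of the family that maintains epithelial identity, was at 0.41 (adjusted p = 0.0454), and MIR16-1, next to MIR15A, at 0.31 (adjusted p = 0.0425). Of the 3 that passed and were lower, MIR568 had the most negative difference, -1.02 (adjusted p = 0.0454). These genes were named after their values were seen. The mean over the 6 arrays of each of the 6 genes lay below every array's median, which ran from 5.08 to 5.23. For MIR568, at a mean of 4.91, the size of the difference puts the control mean above those medians.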
